A study of Homo sapiens with 3 samples.

Results

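Long noncoding and antisense RNAs were followed across polysome-bound, polysome-unbound and total RNA of H9, a human embryonic stem cell line in long use. They were chosen by gene symbol: LINC followed by digits, symbols ending in -AS, -IT or -DT, MALAT1, NEAT1 and MEG3, and microRNA host genes named MIR with a number and HG. EPB41L4A-AS1, which also hosts a snoRNA, was left out. The rule found 441 genes of 18417 that have a probe set with a single gene symbol, on 486 of 19460 such probe sets. By name they were 206 LINC genes, 180 antisense genes (-AS), 33 divergent transcripts (-DT), 9 intronic transcripts (-IT), 11 microRNA hosts, and MALAT1 and MEG3. The RefSeq gene table lists 434 of them, all 434 as lncRNA, and 7 had no match there. NEAT1 and the antisense RNA OIP5-AS1 have no probe set with a single symbol and were not analysed here.

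The cells were held in conditions that keep them pluripotent, with no other treatment or genetic change given. The groups are polysome-bound RNA, polysome-unbound RNA and total RNA. Each sample was hybridised to 1 Affymetrix array, so no difference has a replicate check, no p-value is given, and an array cannot tell fewer cells with an RNA from less RNA per cell. The polysome pools and the total RNA were purified with kits of different makers, so in comparisons with total RNA the source and the kit cannot be told apart. How polysomes were separated and whether nuclei were kept were details not given in the sources used here.

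Long noncoding RNAs are transcripts without a long open reading frame. Many stay in the nucleus, as MALAT1 does in nuclear speckles and NEAT1 in paraspeckles, while others reach the cytoplasm, where some are found with ribosomes and others with free ribonucleoprotein. Antisense RNAs are read from the strand opposite a gene, and divergent transcripts start close to a gene's own start and run the other way. MicroRNA hosts are cut in the nucleus by the enzyme DROSHA, which frees the hairpins.

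The microRNA hosts lay at both ends of the bound against unbound comparison described further on, so their products are shown first. The sequences are mature microRNAs from RefSeq (GRCh38.p14), 5′ to 3′, with the seed (bases 2 to 8) in capitals. MIR17HG, on chromosome 13, carries a cluster of microRNAs known for driving proliferation, and the arms miR-17-5p and miR-20a-5p share the seed AAAGUGC while miR-19a-3p and miR-19b-3p share GUGCAAA.
hsa-miR-17-5p: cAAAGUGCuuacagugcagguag
hsa-miR-20a-5p: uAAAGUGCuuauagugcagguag
hsa-miR-18a-5p: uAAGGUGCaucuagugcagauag
hsa-miR-19a-3p: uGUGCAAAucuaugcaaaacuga
hsa-miR-19b-3p: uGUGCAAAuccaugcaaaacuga
hsa-miR-92a-3p: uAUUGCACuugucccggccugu
The microRNAs of MIR4453HG (chromosome 4), MIR4697HG (chromosome 11) and MIR600HG (chromosome 9) have seeds that differ from these and from each other.
hsa-miR-4453: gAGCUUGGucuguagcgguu
hsa-miR-4697-3p: uGUCAGUGacuccugccccuuggu
hsa-miR-600: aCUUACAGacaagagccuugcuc

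Most of the noncoding genes gave no signal above background in these cells. Background was set on each array as the 95th percentile of 482 olfactory and taste receptor, keratin-associated and defensin genes, and this line lay at a log2 value of 4.40 on the bound, 3.56 on the unbound and 3.76 on the total RNA array. Above that line were 97 of the 441 noncoding genes in bound RNA (22.0%), 103 in unbound RNA (23.4%) and 89 in total RNA (20.2%), against 64.9%, 63.2% and 63.6% of all 18417 genes. MEG3, an imprinted RNA of the DLK1 locus, read 3.45 in bound, 3.21 in unbound and 3.09 in total RNA and was below the line on each array. As a check of the cell line, 12 of 14 pluripotency markers were above the line in total RNA, and so were 7 of 8 fibroblast, 5 of 7 trophoblast or amnion and 8 of 10 germ layer markers, whose part in the results was not tested.

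For the comparisons a gene had to exceed 3.84 in its mean over the 3 arrays. Of the 441 noncoding genes 101 passed, and 340 did not, of which 319 were at or below the line on every array. Among the 101, 74 were above the line on all 3 arrays, 19 on 2 and 8 on 1, so some passed through the array on which they were high. CACTIN-AS1 (mean 3.85) and LINC02914 (3.88) were just inside, and CELF2-AS1 (3.84) and LMNTD2-AS1 (3.83) just outside. By class 33 LINC, 46 antisense, 15 divergent and 6 microRNA host genes passed, with MALAT1, and 0 of the 9 intronic transcripts.

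The median of the 12063 genes past the filter was 1.26 higher on the bound than on the unbound array and 1.03 higher on the bound than on the total array, with a difference of -0.23 for the unbound minus the total array (log2). Whether these offsets belong to the RNA or to the scaling is not known. Below, a relative difference means the log2 difference with that offset taken off, and a gene counts as apart at a relative difference of 1 (2-fold).

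Bound against unbound RNA asks which transcripts sit on polysomes. Of the 101 noncoding genes past the filter, 21 (20.8%) were lower in bound RNA by 2-fold or more and 3 (2.97%) were higher by that much, while 77 were in between. Of the 21 lower genes 3 had bound values at or below background, and with values raised to the background line the count was again 21. Of the 3 higher genes 2 had unbound values at or below background, and 1 was left with values raised to the background line. Over all 12063 genes past the filter, 9.91% were lower and 6.35% higher, and over the 11496 protein-coding genes 8.61% and 6.56%. With no level filter 28 of 441 noncoding genes (6.35%) were lower, beside 5.68% of all genes. The noncoding genes' median was -0.58 (quartiles -0.91 and -0.11), beside -0.07 for all genes. The quartiles place most of them to the unbound side of the typical gene. After quantile normalization 16 of 100 were lower and 4 higher, beside 7.29% and 10.8% of all genes.

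As deposited, without centring, 5 noncoding genes passed 2-fold on the lower side and 30 on the higher side, against 1.56% and 61.4% of all genes, and the noncoding median was 0.69. Signal level moved with this result. The noncoding genes past the filter were dim, with a median over genes of the mean log2 value of 4.61, against 6.47 for all genes, and the tissue-restricted background genes had a median relative difference of -0.55. With the trend of the difference on level removed by lowess, 18 of the 101 were lower and 4 higher, with a median of -0.44, beside 9.33% and 6.37% of all genes. The part of background signal in the median was not tested.

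**Figure D1:**
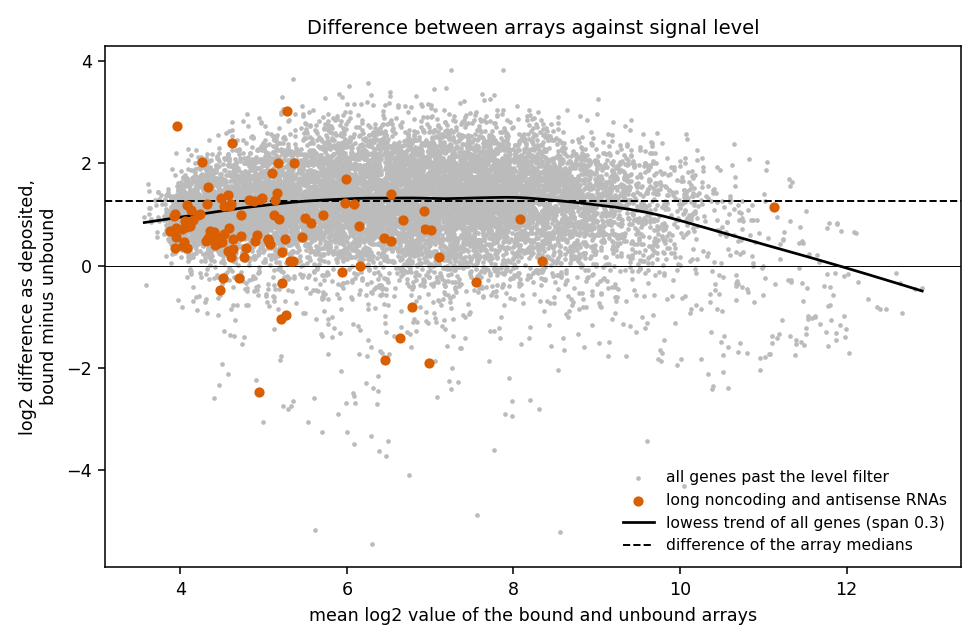
Each point is a gene past the level filter, placed by its mean log2 value on the bound and unbound arrays (horizontal axis) and its log2 difference, bound minus unbound, as deposited (vertical axis); orange points are the 101 long noncoding and antisense RNAs. The solid line is the lowess trend over all 12063 genes and the dashed line the difference of the array medians, 1.26; most orange points lie at the dim end and below both lines.

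On the unbound side lay MIR4453HG, the host of miR-4453. It read 3.72 in bound, 6.18 in unbound and 3.29 in total RNA, and only the unbound value was above background. MIR4453HG thus passed the level filter only through the array on which it was high. As deposited its bound value was at least 3.43-fold below its unbound value, counted against the bound array's background line, and at least 8.24-fold with centring.

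LINC00173 read 6.04 in bound, 7.93 in unbound and 4.24 in total RNA, a relative bound minus unbound difference of -3.16. LINC01089 read 5.93, 7.35 and 4.47 in the same order, a relative difference of -2.67. Both intergenic RNAs were highest in unbound and lowest in total RNA, and both were also lower in bound than in unbound RNA as deposited (-1.90 and -1.41).

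MIR17HG, whose cluster is printed above, read 4.69 in bound, 5.73 in unbound and 4.25 in total RNA. Its relative bound minus unbound difference was -2.30, and -1.03 as deposited. The arrays measure the host transcript here and not the mature microRNAs.

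The other hosts did not go one way. MIR503HG read 4.67 in bound, 4.23 in unbound and 3.80 in total RNA (relative bound minus unbound difference -0.82), and MIR1915HG read 7.22, 5.82 and 6.19 (0.14), so neither was 2-fold apart. MIR600HG had the highest relative difference among the noncoding genes above background on both arrays, with 6.78 in bound, 3.77 in unbound and 5.09 in total RNA, a relative difference of 1.75. MIR4697HG read 5.32, 2.60 and 3.78, a relative difference of 1.46, but its unbound value was below background, and against the background line the centred difference was at least 1.41-fold. Of the 6 hosts past the filter, MIR4453HG and MIR17HG were thus 2-fold or more to the unbound side, and MIR600HG was to the bound side with both values above background. MIR4453HG had passed the filter only through its unbound value.

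**Figure D2:**
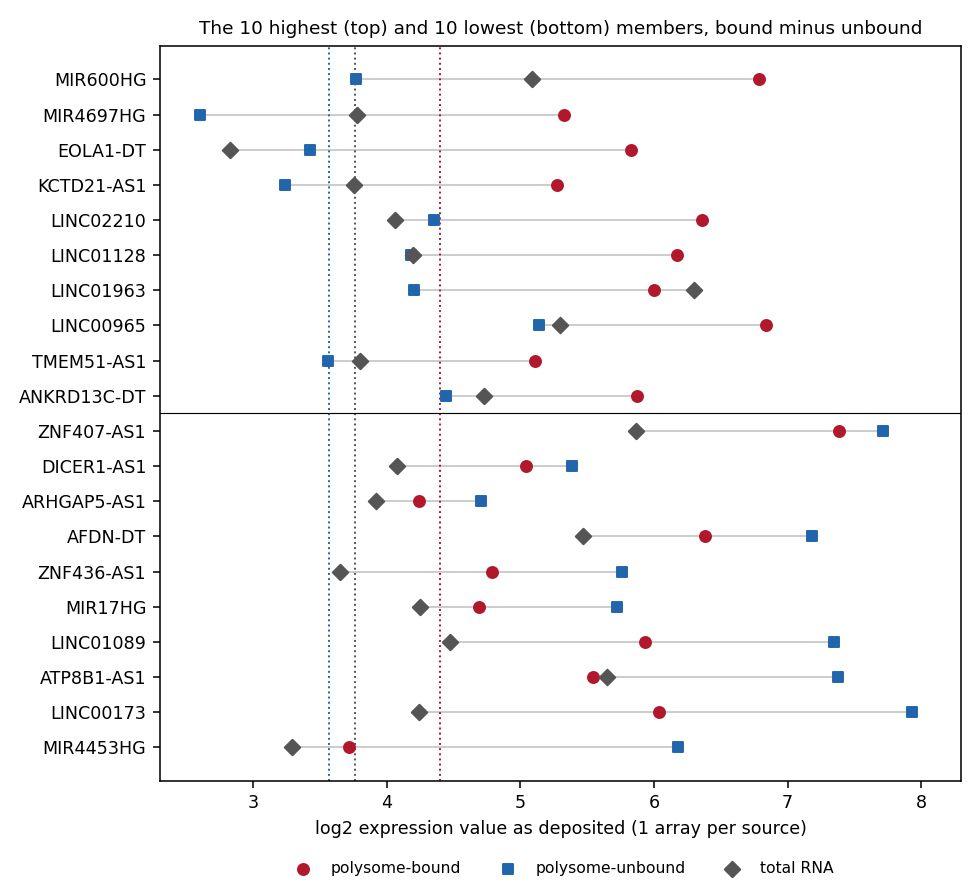
Log2 values as deposited (horizontal axis) of the 10 noncoding genes with the highest and the 10 with the lowest bound minus unbound difference, on the bound array (red circles), the unbound array (blue squares) and the total RNA array (grey diamonds), 1 array each; dotted lines in the same colours are the background lines of 4.40, 3.56 and 3.76. In the lower panel unbound RNA is the highest of the 3 values for every gene, and in 9 of the 10 genes of the upper panel bound RNA is the highest, the exception being LINC01963.

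Antisense RNAs made up 13 of the 21 genes on the unbound side. The median relative difference of the 46 antisense RNAs was -0.73, with 13 lower by 2-fold or more and 0 higher. Of all genes past the filter 9.91% were lower and 6.35% higher, with a median of -0.07. ATP8B1-AS1 read 5.54 in bound, 7.38 in unbound and 5.65 in total RNA (relative bound minus unbound difference -3.10). ZNF436-AS1 read 4.79, 5.76 and 3.65 (-2.24), with total RNA below background. In both, unbound RNA gave the highest value.

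ARHGAP5-AS1 read 4.24 in bound, 4.71 in unbound and 3.92 in total RNA, with the bound value below background, so that its difference is a bound: at least 2.97-fold lower with centring and at least 1.24-fold lower as deposited. DICER1-AS1 read 5.04, 5.38 and 4.08 (relative difference -1.61), and ZNF407-AS1 read 7.38, 7.71 and 5.87 (-1.59). As deposited the bound minus unbound differences of these last genes were -0.34 and -0.33, under 2-fold. Of the 21 genes on the unbound side, 7 had a higher bound than unbound value as deposited.

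Divergent transcripts had a median relative difference of -0.67 over 15 genes, with 2 lower by 2-fold or more and 1 higher. The shares of all genes were 9.91% lower and 6.35% higher. AFDN-DT read 6.38 in bound, 7.18 in unbound and 5.47 in total RNA (-2.07), and EIF3J-DT read 8.38, 8.29 and 6.97 (-1.18, and 0.09 as deposited). EOLA1-DT was the one on the bound side, with 5.83 in bound, 3.42 in unbound and 2.83 in total RNA, and only the bound value was above background. EOLA1-DT thus passed the level filter only through the array on which it was high. Its bound value was at least 4.79-fold its unbound value as deposited, and at least 1.998-fold with centring.

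The remaining 12 divergent transcripts lay between these, from IRX2-DT at -0.85, FLVCR1-DT at -0.79, GATD1-DT at -0.79, ATP6AP1-DT at -0.75, C2orf74-DT at -0.72 and FAM86B2-DT at -0.67 up to BAIAP2-DT at 0.05 and ANKRD13C-DT at 0.16. CEBPA-DT (-0.52), PDXP-DT (-0.34), GARS1-DT (-0.28) and CTBP1-DT (-0.20) were in the middle. None of these 12 was 2-fold apart.

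LINC genes had a median of -0.43, with 4 of 33 lower by 2-fold or more and 0 higher. The shares of all genes were 9.91% lower and 6.35% higher. Their upper end was LINC02210 (0.74), LINC01128 (0.73) and LINC01963 (0.54), below the 2-fold line. LINC00965 (0.44) has 26 probe sets, on which the deposited bound minus unbound difference lay between 1.68 and 1.95. The antisense RNAs furthest to the bound side, KCTD21-AS1 (0.77) and TMEM51-AS1 (0.28), were not above background in unbound RNA and with centring were at least 1.36-fold and 1.21-fold higher. The 3 probe sets of TMEM51-AS1 had deposited differences from 0.59 to 1.55, on either side of the offset of 1.26.

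MALAT1, the nuclear speckle RNA, read 11.71 in bound, 10.56 in unbound and 10.31 in total RNA, a relative bound minus unbound difference of -0.11 and of 1.15 as deposited. Its direction depends on the scaling, since the difference was 0.79 with the lowess trend removed and 1.10 after quantile normalization. Its 2 probe sets differed by 1.15 and 0.97 as deposited. MALAT1 thus lay near the typical gene of its array pair after centring, and above genes of its own signal level after lowess. In bound minus total RNA the difference was 0.37 with centring, 1.2 with the lowess trend removed and 1.43 after quantile normalization.

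Antisense and divergent RNAs were set beside the gene they are named for, measured on the same arrays. A partner past the filter was available for 46 of the 61 such RNAs. The antisense or divergent RNA had a lower relative bound minus unbound difference than its partner in 32 of the 46 pairs, by at least 2-fold in 18, and was at least 2-fold above it in 2. The medians were -0.77 for the noncoding RNAs and -0.11 for the partners. The pairs were not matched for signal level, and background genes had a median relative difference of -0.55. The part of signal level in the gap between member and partner was not tested. Of the 46 partners 7 passed 2-fold on the bound side and 3 on the unbound side, beside 6.35% and 9.91% of all genes.

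A measured partner existed for 14 of the 21 noncoding RNAs on the unbound side. Of these partners 5 passed 2-fold on the bound side and 0 on the unbound side, beside 6.35% and 9.91% of all genes. These 14 were picked for their own low value, so that they lie below their partners is a description. STARD7, WDFY3, KTN1 and NFYC and their antisense RNAs are named here after their values were seen.

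DICER1-AS1 had a relative difference of -1.61, against 1.31 for DICER1, the nuclease that cuts microRNA precursors, which read 9.46 in bound, 6.89 in unbound and 8.19 in total RNA. AFDN-DT had -2.07, against 1.21 for AFDN, the junction protein afadin, which read 8.97, 6.5 and 8.04 on the same arrays. STARD7-AS1 had -1.27, against 1.58 for the lipid transfer protein gene STARD7. In each of these pairs the RNA of the other strand and the mRNA lay on opposite sides of the typical gene.

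KTN1-AS1 had a relative difference of -1.0, against 1.71 for KTN1, the kinesin-binding protein kinectin. WDFY3-AS2 had -1.09, against 1.04 for the autophagy adaptor gene WDFY3, and ATP8B1-AS1 had -3.10, against 0.56 for the phospholipid flippase gene ATP8B1. As deposited KTN1-AS1 (0.26) and WDFY3-AS2 (0.17) were higher in bound than in unbound RNA. Of the 14 partners 7 had a relative difference above 0. The rest lay below 0, though less so than the noncoding RNA named for them. NFYC had -0.88, against -1.18 for NFYC-AS1. ZNF436 had -0.84, KLF3 -0.50, ZNF407 -0.40, EIF3J -0.40, ARHGAP5 -0.32 and ATP6V0E2 -0.04.

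**Figure D3:**
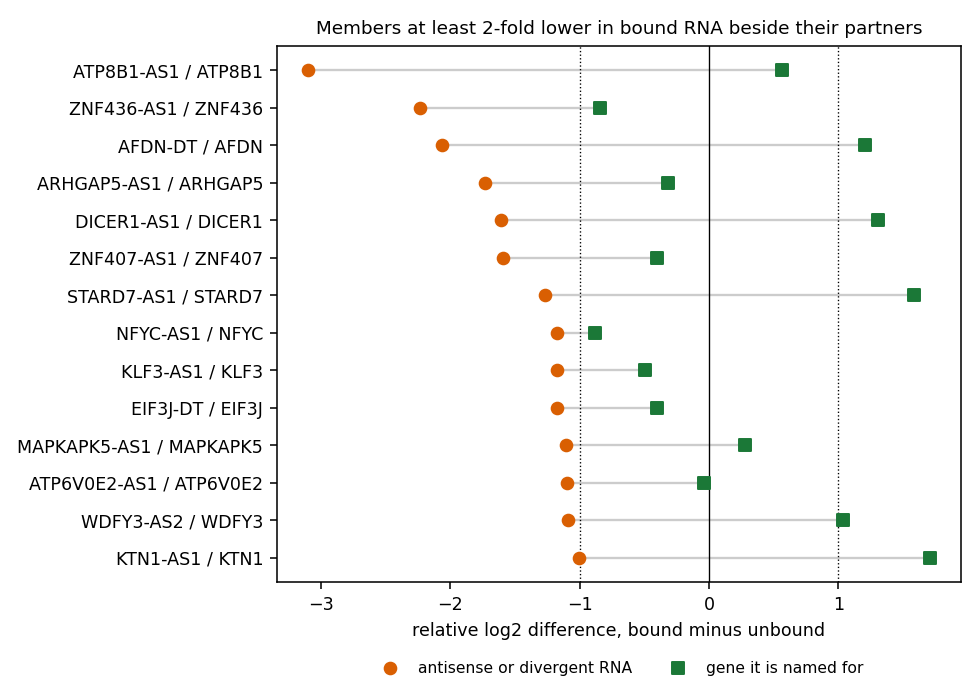
Relative log2 difference, bound minus unbound (horizontal axis), of the 14 antisense or divergent RNAs on the unbound side by 2-fold or more that have a measured partner (orange circles) and of the gene each is named for (green squares), 1 array per source. Dotted lines mark a 2-fold difference either way. Of the 14 partners 5 lie beyond the right-hand line and 0 beyond the left-hand one, beside 6.35% and 9.91% of all genes.

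The reverse was seen for TPT1-AS1, also named after its values were seen. TPT1-AS1 read 8.54 in bound, 7.63 in unbound and 7.19 in total RNA, a relative difference of -0.35. TPT1, a growth-regulated mRNA with a terminal oligopyrimidine tract, read 10.06, 11.86 and 10.60, a relative difference of -3.07. Among divergent pairs, GATD1-DT and FLVCR1-DT, at -0.79 each, were also above GATD1 (-1.57) and the choline transporter gene FLVCR1 (-1.24). Their gaps of 0.79 and 0.45 were under 2-fold.

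The annotated starts of 23 of the 61 antisense and divergent RNAs lay head to head with those of their partners, on opposite strands and 35 to 849 bases apart (median 159). Not all of the others could be placed. Of the 46 pairs with a partner past the filter, 14 lacked an annotated start in the sequences used here, AFDN-DT and AFDN among them. In the 19 head to head pairs measured on both sides the medians were -0.79 for the noncoding RNA and -0.16 for the partner. They were -0.99 and -0.45 in 5 pairs with overlapping starts. In 8 pairs with starts over 1000 bases apart the order was reversed, at -0.19 and -0.41. In the 14 pairs not placed they were -0.92 and 0.37. The stretches between the starts of a pair with opposite values (DICER1), of the pair with the highest partner value (KTN1) and of the reverse case (TPT1) are shown, on the strand of the antisense RNA, from RefSeq (GRCh38.p14). Capitals mark CCAAT or its complement ATTGG.
DICER1-AS1 (chr14:95157530-95157687, plus strand): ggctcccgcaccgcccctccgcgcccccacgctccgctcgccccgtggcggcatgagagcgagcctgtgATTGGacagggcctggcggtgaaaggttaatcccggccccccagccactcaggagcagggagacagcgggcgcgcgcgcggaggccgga
KTN1-AS1 (chr14:55580093-55580206, minus strand): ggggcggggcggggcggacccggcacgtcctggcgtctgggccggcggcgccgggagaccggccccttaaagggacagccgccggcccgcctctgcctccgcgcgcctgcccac
TPT1-AS1 (chr13:45341184-45341344, plus strand): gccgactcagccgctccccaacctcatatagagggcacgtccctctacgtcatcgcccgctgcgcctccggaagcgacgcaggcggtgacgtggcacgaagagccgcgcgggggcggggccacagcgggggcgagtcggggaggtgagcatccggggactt
All 3 stretches were rich in G and C (74.7%, 82.5% and 71.4%) and held 19, 17 and 21 CG dinucleotides.

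Promoter windows of 250 bases before to 50 after a start were searched on both strands for TATAAA and CCAAT. The 94 windows of 75 noncoding genes past the filter held TATAAA in 6.38% and CCAAT in 30.9%, against 11.5% and 34.6% of all 35116 windows and 6.41% and 35.1% of the windows of all genes past the filter. Their median count of CG dinucleotides was 25.5, against 14 for all windows and 25 for genes past the filter. The 22 windows of 16 genes on the unbound side held TATAAA in 4.55% and CCAAT in 36.4%, with a median of 28 CG dinucleotides.

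The 21 genes on the unbound side had a median RefSeq gene span of 3239 bases (quartiles 2869 and 7680), and the 77 in between had 8779 bases (4100 and 20112), ranges that overlap. Protein-coding genes past the filter had a median of 32180 bases. The span includes introns and is not the length of the RNA.

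Unbound against total RNA sets the pool off polysomes beside the whole. Of the 101 noncoding genes, 24 (23.8%) were at least 2-fold higher in unbound RNA and 3 (2.97%) at least 2-fold lower, beside 8.09% and 9.96% of all genes. The median was 0.38, beside -0.07 for all genes. With no level filter 21 of 441 (4.76%) were higher, beside 4.53% of all genes. The median was then -0.084, beside -0.15 for all genes. As deposited the counts were 17 and 4, beside 5.42% and 16% of all genes. This comparison shares the unbound array with the previous one, so they are not independent.

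LINC00173 had a relative unbound minus total difference of 3.93 and LINC01089 one of 3.11. MIR4453HG was at least 5.35-fold and ZNF436-AS1 at least 3.99-fold higher in unbound than in total RNA as deposited, since total RNA was below background for both. ZNF407-AS1 (2.08), ATP8B1-AS1 (1.97) and AFDN-DT (1.95) followed. Of the 24 genes, 7 were at or below background in total RNA, so that for them the size is a bound.

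LINC01963 went the other way, with 6.0 in bound, 4.2 in unbound and 6.30 in total RNA, a relative unbound minus total difference of -1.87. MIR600HG had -1.09, and B3GALT5-AS1 had -1.08 with 4.92 in bound, 3.72 in unbound and 5.04 in total RNA. B3GALT5, a galactosyltransferase that makes a glycolipid of the stem cell surface, was below background in bound (4.19) and unbound RNA (3.51). In total RNA it was above the line (4.10). SSTR5-AS1 had -0.47. MIR4697HG and LINC02899 were below background in unbound RNA, and as deposited they were at least 1.16-fold and 1.49-fold lower there than in total RNA.

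Between bound and total RNA few of these genes were apart. Of the 101, 3 were higher in bound RNA by 2-fold or more and 3 lower, each 2.97%, beside 2.66% and 6.41% of all genes. The median was -0.13, beside -0.14 for all genes. As deposited 38 were higher and 0 lower, beside 40.1% and 0.572% of all genes, and after quantile normalization 4 of 100 were higher and 3 lower, beside 3.24% and 3.42%. The shares of the noncoding genes that were higher were near those of all genes on each of these scales.

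LINC02210 read 6.36 in bound, 4.35 in unbound and 4.06 in total RNA, a relative bound minus total difference of 1.27, with each value above background. EOLA1-DT and LY6S-AS1 were below background in total RNA, so their differences are bounds. The bound value of EOLA1-DT was at least 4.18-fold its total value as deposited and at least 2.05-fold with centring. LY6S-AS1 read 5.78 in bound, 4.50 in unbound and 3.56 in total RNA, at least 4.05-fold apart as deposited and at least 1.98-fold with centring. LINC01128 (0.95) and LINC02893 (0.92) were measured on both arrays, and KLF3-AS1, with total RNA below background, was at least 1.52-fold higher with centring. On the lower side LINC01963 (-1.33), B3GALT5-AS1 (-1.14) and ATP8B1-AS1 (-1.13) passed 2-fold, and ATP6V0E2-AS1 had -0.85. LINC00917 and LINC02198 were below background in bound RNA, so that with centring they were at least 1.70-fold and 1.66-fold lower there.

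**Figure D4:**
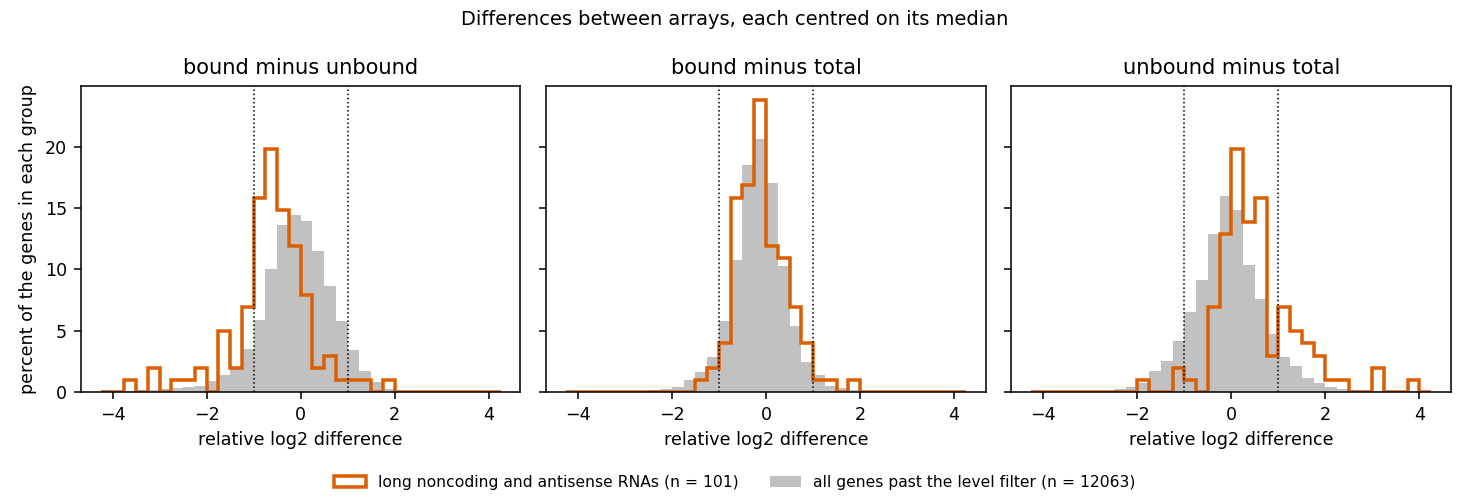
Percent of genes (vertical axis) by relative log2 difference (horizontal axis, bins of 0.25) for the 101 long noncoding and antisense RNAs (orange outline) and all 12063 genes past the level filter (grey), in each of the 3 comparisons; dotted lines mark a 2-fold difference. The orange outline lies left of the grey in bound minus unbound (medians -0.58 and -0.07), over it in bound minus total (-0.13 and -0.14) and right of it in unbound minus total (0.38 and -0.07).

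The mRNAs of proteins that work with nuclear noncoding RNAs were read on the same arrays. Of 25 paraspeckle and nuclear speckle protein genes past the filter, 8 were lower in bound than in unbound RNA by 2-fold or more and 2 higher, with a median relative difference of -0.38, beside 9.91% and 6.35% of all genes. The lowest were PNN (-2.12), a speckle protein, the splicing factor SRSF2 (-1.76) and PSPC1 (-1.52), a core paraspeckle protein. The highest were the speckle scaffolds SRRM2 (1.37) and SRRM1 (1.06), followed by the remodeller SMARCA4 (0.77). As deposited 0 of the 25 were lower and 11 higher, beside 1.56% and 61.4% of all genes.

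Of 18 nuclear RNA decay and export genes past the filter, 0 were lower by 2-fold or more and 2 higher, with a median of 0.11, beside the same 9.91% and 6.35% of all genes. The highest were ZFC3H1 (1.56), which links polyadenylated nuclear RNA to the exosome, the export factor THOC2 (1.13) and the export adaptor ALYREF (0.87). The lowest were the exosome helicase MTREX (-0.79), the nuclear exosome nuclease EXOSC10 (-0.59) and ZCCHC8 (-0.49), a partner of that helicase. As deposited 14 of the 18 were higher and 0 lower, beside 61.4% and 1.56% of all genes.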

How the data were processed

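The values the authors deposited are on a log2 scale, with 33297 probe sets on each of 3 arrays. Per the submitters' processing notes, Partek 6.5 and RMA were used; RMA corrects background, summarises probes and usually quantile-normalizes, which would give the 3 columns 1 distribution; theirs differ. Further steps were not given in the sources used here. In the bound column each of the 33297 values carries 7 decimals with a shared last pair, against at most 5 decimals elsewhere; adding a constant to a column would leave centred differences as they are. With 1 array per source, the signal above background limits precision.

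Gene names came from GEO's platform annotation: 19460 probe sets have 1 symbol, 1754 several and 12083 are not named in it. The probe set with the highest mean represents a gene. Strand handling in labelling was not given in the sources used here, so signal from overlapping antisense pairs cannot be told apart on that ground. Groups follow the labels' sample type. Differences have no test. The scripts were tested on simulated data.

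The members and lists were chosen with earlier results of these data known. Named genes are the 10 highest and 10 lowest members for bound minus unbound, the 6 highest and 6 lowest of each comparison with total RNA, MALAT1, MEG3, all microRNA hosts and divergent transcripts past the filter, partners of the named, and the 3 highest and 3 lowest of each protein list. Alternatives were no filter or a filter at the 99th percentile of background, no centring, quantile normalization, lowess (span 0.3), and the mean of a gene's probe sets or genes with 1 probe set. Raising values to the background line was added after seeing the data. Tables were handled with pandas 2.3.3 and numpy 2.4.6 under Python 3.11.15, trends fitted with statsmodels 0.14.6 and figures drawn with matplotlib 3.10.9.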

Additional observations from a re-analysis of the deposited data

How the results depend on the processing

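The share of noncoding genes on the unbound side changed with the level filter. With no filter, 28 of 441 (6.35%) were lower in bound than in unbound RNA by 2-fold or more, beside 5.68% of all genes. In bound minus total 7 (1.59%) were lower, beside 4.44% of all genes. The medians were then -0.47 for bound minus unbound, -0.54 for bound minus total and -0.084 for unbound minus total. Over all genes they were -0.24, -0.35 and -0.15. With the filter at the 99th percentile of background 34 noncoding genes were left. Of these 10 (29.4%) were lower and 1 higher in bound than in unbound RNA, beside 10.6% and 8.04% of all genes. In bound minus total 1 was higher and 2 were lower, beside 3.56% and 6.03% of all genes. In unbound minus total 12 were higher and 2 lower, beside 10.4% and 10.2% of all genes. The medians were 0.26 for bound minus total and 0.73 for unbound minus total, beside -0.031 and -0.045 for all genes. As deposited, 30 were higher and 5 lower in bound than in unbound RNA (median 0.69), and 38 higher and 0 lower in bound minus total (median 0.90). On that scale 7 of the 21 genes on the unbound side changed direction in bound minus unbound. Among them were KTN1-AS1 (0.26), WDFY3-AS2 (0.17), ATP6V0E2-AS1 (0.17), EIF3J-DT (0.086), KLF3-AS1 (0.086) and NFYC-AS1 (0.085). After quantile normalization the median of bound minus unbound was -0.31. With values raised to the background line, 1 gene was higher and 21 were lower in bound than in unbound RNA. The mean of a gene's probe sets and genes with 1 probe set left each count within 1.5 times. The cause was not tested, except that the stricter filter tests fewer genes. No paired analysis was possible because each group has 1 array. Signal near background limits the dim genes.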

Other observations

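Among the 340 noncoding genes outside the level filter, 21 were above the background line on a single array, which was the bound one for 7, the unbound one for 10 and the one with total RNA for 4. The following genes are named after their values were seen. HEXA-AS1 read 3.26 in bound, 4.46 in unbound and 2.77 in total RNA. The microRNA host MIR22HG read 3.72 in bound, 4.07 in unbound and 3.30 in total RNA. The antisense RNAs of 2 trophoblast and amnion transcription factor genes, GATA3-AS1 (3.78, 4.11 and 3.29) and TFAP2A-AS1 (4.04, 3.79 and 3.09), were above the line in unbound RNA only, in the same order of arrays.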
